A study of Mus musculus with 18 samples.

Results

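The 10 genes described here encode the secreted signals through which macrophages raise or restrain inflammation, other than chemokines. They were chosen by name and matched by Ensembl identifier to GRCm38 annotation, which found 10 of 10 among the 55385 genes counted. The pro-inflammatory members are *Il6* (interleukin-6), *Tnf* (tumor necrosis factor), *Il1a* and *Il1b* (the IL-1 receptor agonists IL-1α and IL-1β), *Il12b* (the p40 chain shared by IL-12 and IL-23), *Il18* and *Osm* (oncostatin M, of the IL-6 family). The restraining members are *Il1rn* (the IL-1 receptor antagonist), *Il10* and *Tgfb1* (transforming growth factor β1). Expression of 9 members passed the filter, which asked for 10 or more counts in no fewer than 2 of 18 libraries, and *Il12b* did not.

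RNA was sequenced from bone marrow-derived macrophages (BMDM) of 3 individual female C57BL/6J mice aged 12 weeks, grown with L-929 culture supernatant as the source of growth factor and harvested on day 7. All cells then had 24 h with vehicle (Veh, 0.1% DMSO), 250 µM hemicholinium-3 (HC3, an inhibitor of choline uptake) or 5 µM RSM-932a (RSM, a choline kinase inhibitor). Another 24 h followed either without stimulus (naïve, M[0]) or with IL-4 at 20 ng/mL (polarized, M[IL-4]), which gave 6 groups of 3 libraries. The study asked how limiting choline supply or its phosphorylation alters naïve and IL-4-polarized macrophages.

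Macrophages make most of these cytokines in small amounts until a microbial product or a damage signal reaches them, when NF-κB, AP-1 and C/EBP factors switch on *Il6*, *Tnf* and the IL-1 genes. IL-1β and IL-18 are made as precursors that caspase-1 cuts in an inflammasome, whereas IL-1α can act uncut and IL-1 receptor antagonist occupies the same receptor without signaling. IL-10 signals back on the macrophage to lower the production of the others, and IL-4 is known as a signal for repair and for restraint of inflammatory genes. Transcripts of *Il6*, *Tnf* and *Il1b* are also short lived, since ZFP36 proteins bind AU-rich elements in them and hasten their decay.

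Libraries held 17457796 to 19522255 counts, so that 3 counts in a library equal 0.153 to 0.176 CPM (counts scaled to library size with TMM factors). Mitochondrial transcripts took 1.68 to 2.20% of counts in the 6 Veh libraries, 2.50 to 3.45% with HC3 and 0.665 to 0.828% with RSM. Macrophage markers were detected in all libraries (7 of 7 passed the filter, none at 0), and their summed level was 19650 to 20765 CPM in Veh M[0], 8460 to 9556 in HC3 M[0] and 15244 to 16775 in RSM M[0]. In M[IL-4] it was 11663 to 12027 with Veh, 7403 to 8593 with HC3 and 10452 to 12849 with RSM. *Lyz2* was the largest part of this sum in every group. Its mean was 4531 CPM in Veh M[IL-4], 11633 in Veh M[0] and 11660 in RSM M[0]. *Csf1r* went from 3967 CPM in Veh M[0] to 1519 with HC3 and 1720 with RSM, and *Adgre1* from 2837 to 1218 and 1266. With Veh, IL-4 left *Cd68* at 1391 CPM (1390 without it) and *Csf1r* at 3508. By the thresholds given below, 5 of 7 markers fell with HC3 in M[0], 3 with RSM there and 3 with IL-4 after Veh. Stromal markers (5 of 5 passed the filter, none at 0) summed to 507 to 855 CPM in Veh M[0], 1199 to 1644 in HC3 M[0] and 998 to 1423 in RSM M[0]. Their sums in M[IL-4] were 278 to 648 with Veh, 550 to 1038 with HC3 and 527 to 1045 with RSM. Most of each sum came from *Col1a1* and *Col1a2* (means of 270 and 358 CPM in Veh M[0]), whereas *Dcn* went from 8.50 CPM in Veh M[0] to 7.91 with HC3 and 2.99 with RSM, and *Pdgfra* from 22.1 to 19.0 and 16.2. Mast cell and basophil markers summed to 12.3 to 20.2 CPM in HC3 M[0], nearly all of it *Kit*, and to at most 6.17 CPM elsewhere, with *Fcer1a* at 0 in every library. T cell, neutrophil, NK cell and dendritic cell markers each summed to at most 5.92 CPM, and *Cd3d*, *Cd3g*, *S100a9*, *Elane* and *Retnlg* were at 0 in every library. In bulk RNA, fewer cells of a type and less RNA per cell cannot be told apart, and the part of these markers in the results below was not tested.

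The start sites of 3 members are shown because *Il6* rose in every inhibitor comparison while the neighboring *Il1a* and *Il1b* genes moved in opposite directions in M[0]. RefSeq promoters of build GRCm38.p6 were at hand for 8 of the 10 members. Below are the 250 bases before the start site of *Il6* (chr5:30012864-30013113, plus strand), *Il1a* (chr2:129309973-129310222, minus strand) and *Il1b* (chr2:129371140-129371389, minus strand). They read 5′ to 3′ on the strand of the gene, and capitals mark matches to 7 motifs searched on both strands.
Il6: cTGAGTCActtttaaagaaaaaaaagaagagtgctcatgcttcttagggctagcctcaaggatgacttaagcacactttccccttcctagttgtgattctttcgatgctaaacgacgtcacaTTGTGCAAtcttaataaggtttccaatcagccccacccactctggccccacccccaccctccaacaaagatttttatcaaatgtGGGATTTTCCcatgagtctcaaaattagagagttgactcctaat
Il1a: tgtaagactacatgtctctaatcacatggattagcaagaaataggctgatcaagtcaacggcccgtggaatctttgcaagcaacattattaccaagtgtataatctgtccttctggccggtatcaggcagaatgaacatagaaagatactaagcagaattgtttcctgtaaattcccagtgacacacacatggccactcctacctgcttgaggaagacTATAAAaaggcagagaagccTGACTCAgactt
Il1b: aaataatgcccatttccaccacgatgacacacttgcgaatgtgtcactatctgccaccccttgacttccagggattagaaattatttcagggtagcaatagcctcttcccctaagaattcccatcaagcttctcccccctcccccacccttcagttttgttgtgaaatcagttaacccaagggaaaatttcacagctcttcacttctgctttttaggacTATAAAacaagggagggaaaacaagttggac
The motifs were the TATA box (TATAAA), AP-1 (TGANTCA), C/EBP (TTNNGCAA), a composite of ATF and C/EBP (TGATGNAA), STAT (TTCNNNGAA) and, by name, STAT6 and NF-κB. The *Il6* stretch held an AP-1, a C/EBP and an NF-κB match that began 249, 128 and 44 bases before the start. Those of *Il1a* and *Il1b* shared a TATA box that began 32 and 31 bases before the start, and *Il1a* had an AP-1 match 12 bases before it. No 2 of these matches overlapped. Of all 32851 promoter stretches of this length, 12.4% held the TATA box, 6.75% AP-1, 9.56% C/EBP and 7.25% NF-κB, so each match describes the letters and no more.

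Per kilobase of exon, *Tgfb1* was the most abundant member in all 6 groups, at 99.8 ± 12.3 CPM per kb (mean ± SD, n = 3) in Veh M[0]. *Tnf* came next at 10.9 ± 1.81, followed by *Il1rn* at 6.74 ± 1.54, *Il18* at 5.86 ± 0.865 and *Osm* at 4.32 ± 0.426. The length used was that of all annotated exons of a gene merged, 5535 bases for *Il1rn* and 1639 for *Tnf*. The order and the ratios per length depend on that choice. In CPM, *Il1rn* was above *Tnf* in Veh M[0], at 37.3 ± 8.50 against 17.9 ± 2.97. *Il10* stood at 3.38 ± 0.262 and *Il1b* at 2.77 ± 0.783, while *Il6* and *Il1a* were at 0.0687 ± 0.0441 and 0.0647 ± 0.0620 CPM per kb. The same scale put *Osm* second in RSM M[IL-4] at 9.92 ± 1.35 CPM per kb, ahead of *Tnf* at 2.93 ± 0.912. *Il6* passed *Il10* in both inhibitor groups of M[IL-4], at 2.24 ± 0.473 against 0.437 ± 0.256 with HC3 and 1.23 ± 0.411 against 0.714 ± 0.215 with RSM.

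**Figure D1:**
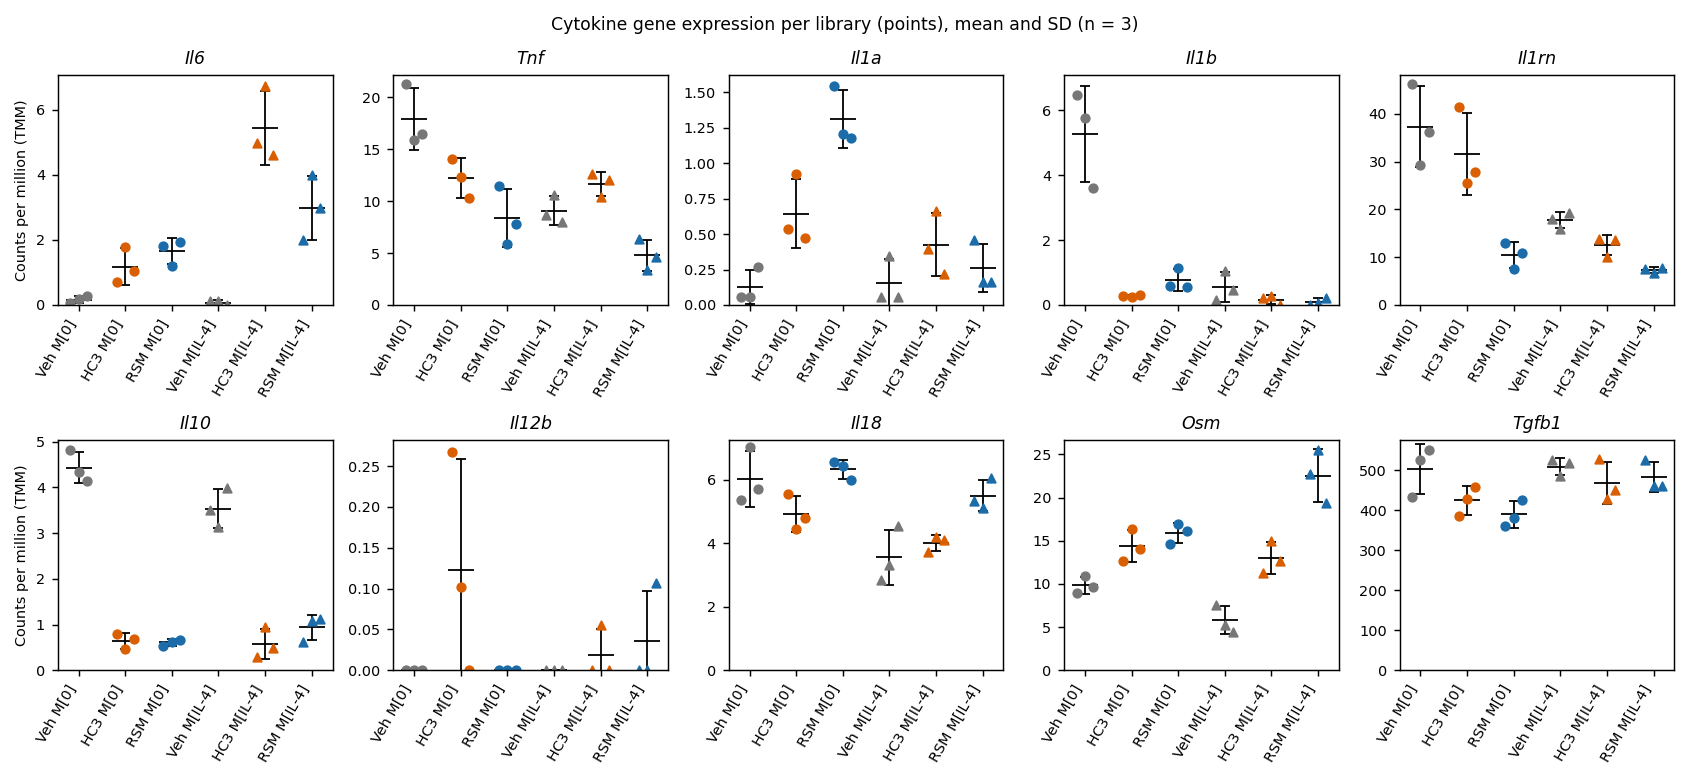
Expression of the 10 cytokine genes in CPM (vertical axes, each from 0) in the 6 groups (horizontal axis), with a point per library, a bar at the mean and whiskers for the SD (n = 3). *Il10* is at 3.14 to 4.81 CPM in the 6 Veh libraries and at 0.283 to 1.12 CPM in the 12 inhibitor libraries, and *Il6* is at 0.696 CPM or higher with inhibitors and at most 0.269 CPM without.

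Across the 4 comparisons of an inhibitor with Veh, *Il6* rose and *Il10* fell in every one, *Il1b* fell in 3 and *Osm* rose in all 4, though past the fold threshold in M[IL-4] alone. A gene was called when the edgeR quasi-likelihood test across all genes gave it a Benjamini-Hochberg false discovery rate (FDR) below 0.05 and its fitted log2 difference was 1 or more in either direction. HC3 in M[0] called 4 of the 9 tested members (2 up, 2 down), where 12% of all 14979 tested genes were called, and 7 passed on FDR alone, where 44.1% of all genes did. RSM in M[0] called 6 (2 up, 4 down) beside 11.6% of all genes, and 8 passed on FDR beside 41.1%. In M[IL-4], HC3 called 3 (2 up, 1 down) beside 10.3%, and 3 passed on FDR beside 38.8%. RSM in M[IL-4] called 5 (2 up, 3 down) beside 11%, and 7 passed on FDR beside 38.6%. The median log2 fold change of the 9 members was -0.25, -0.37, 0.17 and -0.08 in that order, beside 0.02, 0.01, 0.01 and 0.02 over all genes tested. HC3 and RSM were each set against the same Veh libraries, so that their comparisons are not independent, and 3 libraries against 3 cannot give an exact permutation p below 0.1 for a gene taken alone.

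**Figure D2:**
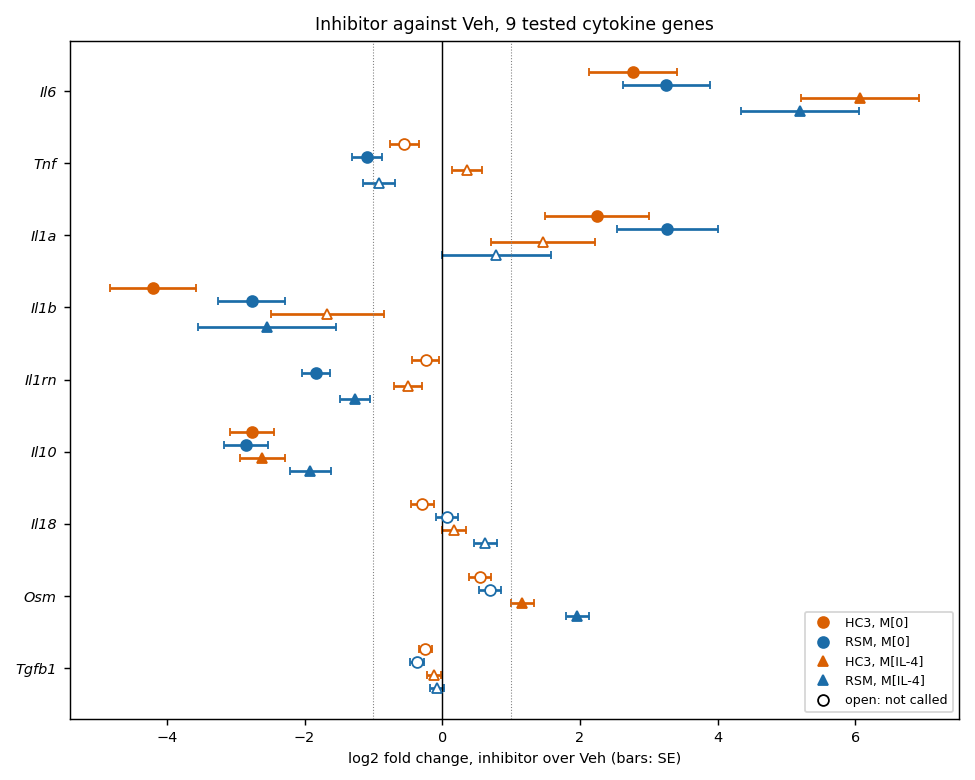
Log2 fold change of 9 cytokine genes with HC3 (orange) or RSM (blue) over Veh (horizontal axis) in M[0] (circles) and M[IL-4] (triangles), with whiskers for the SE and filled symbols for called genes. All 4 *Il6* symbols lie at 2.77 or higher and all 4 *Il10* symbols at -1.92 or lower, while those of *Tgfb1* stay between -0.37 and -0.08.

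*Il6*, a cytokine that drives the acute phase response and T cell differentiation, was nearly silent without inhibitors. Its gene lies on chromosome 5 (30013114 to 30019981, plus strand, GRCm38). Raw counts in the 3 libraries were 1, 3 and 5 in Veh M[0], 13, 35 and 20 in HC3 M[0], and 34, 23 and 38 in RSM M[0]. Every inhibitor library of M[0] was above every Veh library, and HC3 and RSM overlapped. *Il6* rose 6.83-fold with HC3 (log2 2.77 ± 0.64 SE, edgeR FDR = 0.000425) and 9.54-fold with RSM (log2 3.25 ± 0.63, edgeR FDR = 5.79e-05).

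In M[IL-4], *Il6* had 2, 2 and 0 counts with Veh, 88, 122 and 84 with HC3, and 39, 74 and 56 with RSM. The 3 groups did not overlap, with HC3 highest, RSM between and Veh lowest. The log2 fold change was 6.07 ± 0.86 with HC3 (95% interval 4.27 to 7.87 by the fitted SE, edgeR FDR = 4.67e-08) and 5.20 ± 0.86 with RSM (interval 3.39 to 7.01, edgeR FDR = 5.93e-07). Both sizes rest on 4 Veh counts in all, so the direction is firmer than the fold. *Il6* levels ran from 5.44 ± 1.15 CPM in HC3 M[IL-4] through 2.98 ± 0.998 in RSM M[IL-4], 1.66 ± 0.398 in RSM M[0] and 1.18 ± 0.559 in HC3 M[0] to 0.167 ± 0.107 in Veh M[0] and 0.0746 ± 0.0647 in Veh M[IL-4]. In that order the libraries of neighboring groups overlapped between RSM M[0] and HC3 M[0] and between both Veh groups, and nowhere else.

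After HC3, *Il6* was 4.58-fold higher in M[IL-4] than in M[0] (log2 2.19 ± 0.35, edgeR FDR = 0.000204). With RSM the log2 difference was 0.84 ± 0.35 (edgeR FDR = 0.121, or 0.0653 with a replicate block over all libraries), with no overlap between groups. With Veh it was -1.10 ± 1.01 (edgeR FDR = 0.394). The test of the difference itself, the HC3 by IL-4 interaction, gave a log2 value of 3.29 ± 1.07 and an edgeR FDR of 0.0578, short of the threshold, and of 0.0227 with the replicate block within each polarization. The *Il6* interaction also passed without Veh M[0] replicate 1 (edgeR FDR = 0.0422), HC3 M[0] replicate 2 (0.0275), RSM M[IL-4] replicate 1 (0.0456) or RSM M[IL-4] replicate 2 (0.0489). The RSM by IL-4 interaction of *Il6* was 1.94 ± 1.07 (edgeR FDR = 0.271).

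*Il10*, the chief cytokine by which macrophages restrain their own activation, fell in all 4 comparisons. Its gene lies on chromosome 1 (131019845 to 131024974, plus strand). Counts were 87, 74 and 77 in Veh M[0], 15, 9 and 13 in HC3 M[0], and 10, 12 and 13 in RSM M[0]. All 6 inhibitor libraries lay below the lowest Veh library. *Il10* was 6.78-fold lower with HC3 (log2 -2.76 ± 0.32, edgeR FDR = 6.27e-07) and 7.20-fold lower with RSM (log2 -2.85 ± 0.32, edgeR FDR = 5.1e-07).

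*Il10* counts in M[IL-4] were 65, 54 and 71 with Veh, 5, 17 and 9 with HC3, and 12, 20 and 21 with RSM. Here too no inhibitor library reached a Veh library, while HC3 and RSM overlapped. The fall was 6.11-fold with HC3 (log2 -2.61 ± 0.33, edgeR FDR = 2.46e-06) and 3.77-fold with RSM (log2 -1.92 ± 0.30, edgeR FDR = 3.6e-05). IL-4 with Veh moved *Il10* by -0.32 ± 0.26 (edgeR FDR = 0.368), although its 3 M[IL-4] libraries were all below the 3 of M[0]. The order of levels was Veh M[0] at 4.43 ± 0.343 CPM, Veh M[IL-4] at 3.54 ± 0.421, then RSM M[IL-4] at 0.935 ± 0.281, HC3 M[0] at 0.649 ± 0.173, RSM M[0] at 0.609 ± 0.0687 and HC3 M[IL-4] at 0.572 ± 0.336, the last 4 overlapping from each to the next.

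The 2 IL-1 agonist genes, which adjoin each other on chromosome 2 (*Il1a* at 129299610 to 129309972 and *Il1b* at 129364570 to 129371139, both on the minus strand), moved apart in M[0]. *Il1b* counts were 117, 98 and 67 with Veh, 5, 5 and 6 with HC3, and 11, 22 and 11 with RSM. No library of one group overlapped another, Veh being highest and HC3 lowest. *Il1b* was 18.4-fold lower with HC3 (log2 -4.20 ± 0.62, edgeR FDR = 5.7e-06) and 6.82-fold lower with RSM (log2 -2.77 ± 0.49, edgeR FDR = 0.000129).

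*Il1a* in M[0] had 1, 1 and 5 counts with Veh, 10, 18 and 9 with HC3, and 29, 23 and 23 with RSM. Again the 3 groups were apart, now with RSM highest and Veh lowest. *Il1a* rose 4.77-fold with HC3 (log2 2.25 ± 0.76, edgeR FDR = 0.0112) and 9.63-fold with RSM (log2 3.27 ± 0.73, edgeR FDR = 0.000333). The HC3 call was lost without Veh M[0] replicate 1 (log2 1.90, edgeR FDR = 0.0504) or HC3 M[0] replicate 2 (log2 1.88, edgeR FDR = 0.0554). Of the exon length of *Il1a*, 11.2% overlaps *Gm14023* on the opposite strand, and 1.31% of that of *Il1b* overlaps *Il1bos*. With no strand setting given, reads from those stretches cannot be told apart.

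**Figure D3:**
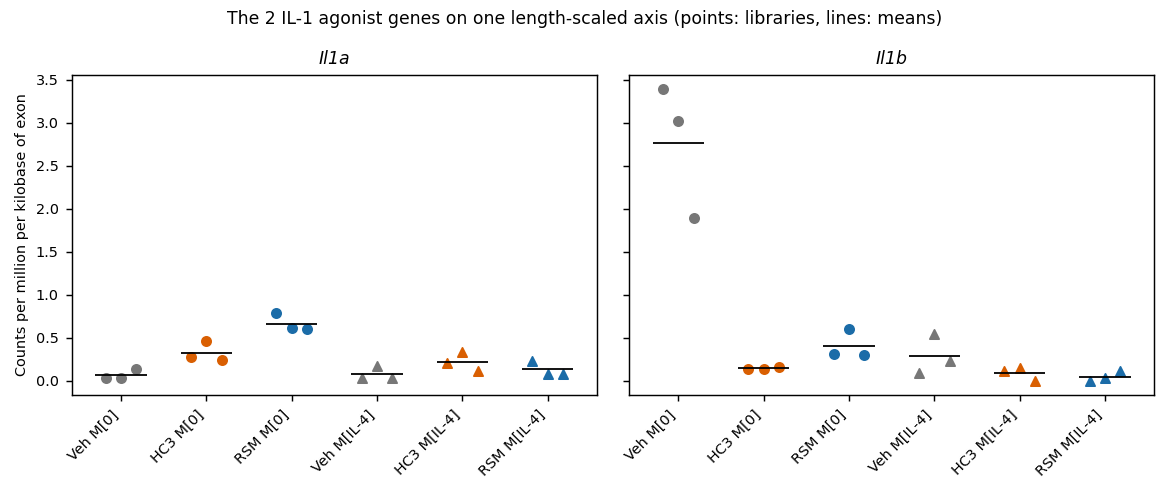
*Il1a* (left) and *Il1b* (right) in CPM per kilobase of exon on a common vertical axis, with a point per library in each of 6 groups and a line at the mean. *Il1b* is above *Il1a* in all 3 Veh M[0] libraries and below it in all 6 inhibitor libraries of M[0].

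Per length, *Il1b* made up 93.3 to 99.2% of both agonist transcripts together in Veh M[0], 22.3 to 40.8% in HC3 M[0] and 28.2 to 49.8% in RSM M[0]. The agonist in the majority was therefore *Il1b* with Veh and *Il1a* with either inhibitor, with no overlap between Veh and inhibitor libraries.

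In M[IL-4], both agonist genes were near the limit of detection. *Il1b* counts were 3, 18 and 8 with Veh, 4, 5 and 0 with HC3, and 0, 1 and 4 with RSM, and all 3 groups overlapped. Its log2 difference was -1.67 ± 0.83 with HC3 (edgeR FDR = 0.0955, but past the threshold without Veh M[IL-4] replicate 1, at -2.10 and 0.0325). With RSM *Il1b* was called lower at -2.54 ± 1.01 (edgeR FDR = 0.0244). That call was lost in a fit of only the compared groups (edgeR FDR = 0.0702) and without Veh M[IL-4] replicate 2 (log2 -1.71, edgeR FDR = 0.175), RSM M[IL-4] replicate 1 (-1.97, 0.0921) or RSM M[IL-4] replicate 2 (-2.31, 0.0729). The same call was also lost with replicate number 1 (-2.41, 0.0624) or 2 (-1.49, 0.302) left out. *Il1a* had 1, 6 and 1 counts with Veh, 7, 12 and 4 with HC3, and 9, 3 and 3 with RSM. Its log2 differences of 1.47 ± 0.75 (edgeR FDR = 0.111) and 0.78 ± 0.79 (edgeR FDR = 0.451) did not pass, except with HC3 when Veh M[IL-4] replicate 2 was left out (log2 2.81, edgeR FDR = 0.0187).

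*Il1rn*, on the same chromosome (24336853 to 24351494, plus strand), encodes the receptor antagonist that counters both agonists, and it set the inhibitors apart. In M[0] it stood at 46.3, 29.4 and 36.3 CPM with Veh, 41.4, 25.6 and 27.8 with HC3, and 13.1, 7.48 and 10.8 with RSM. HC3 overlapped Veh, and RSM was below both in every library. *Il1rn* was 3.57-fold lower with RSM (log2 -1.84 ± 0.20, edgeR FDR = 8.13e-07), whereas the HC3 difference was -0.24 ± 0.19 (edgeR FDR = 0.335, or 0.0109 with the replicate block within each polarization).

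In M[IL-4], *Il1rn* was at 18, 15.9 and 19.3 CPM with Veh, 13.9, 10.1 and 13.6 with HC3, and 7.44, 6.73 and 7.82 with RSM. The groups did not overlap, and RSM was lowest. The RSM fall was 2.42-fold (log2 -1.27 ± 0.22, edgeR FDR = 0.00011). The HC3 difference was -0.50 ± 0.21 (edgeR FDR = 0.0664, or 6.59e-05 with the replicate block within each polarization). Set against the agonists, the ratio of *Il1rn* to *Il1a* plus *Il1b* per length was 1.74 to 3.24 in Veh M[0], 7.69 to 18.2 in HC3 M[0] and 1.11 to 2.19 in RSM M[0]. Only HC3 lay clear of Veh among these 3 groups, and in M[IL-4] the ratio rests on too few agonist counts to compare.

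*Tnf*, on chromosome 17 (35199381 to 35202007, minus strand), encodes the cytokine that opens many inflammatory cascades. In M[0] it was at 21.3, 15.9 and 16.5 CPM with Veh, 14.1, 12.3 and 10.3 with HC3, and 11.4, 5.86 and 7.80 with RSM. Both inhibitor groups lay below every Veh library. RSM lowered *Tnf* 2.14-fold (log2 -1.10 ± 0.22, edgeR FDR = 0.000464). With RSM, *Tnf* fell short of the fold threshold without Veh M[0] replicate 1 (log2 -0.95), RSM M[0] replicate 2 (log2 -0.91) or all of replicate number 2 (log2 -0.99). HC3 lowered it on FDR alone (log2 -0.55 ± 0.21, edgeR FDR = 0.0434), which was lost in 8 of 28 alternatives. These were library size alone (edgeR FDR = 0.0668), replicate number 3 left out (0.267), and the omission of Veh M[0] replicate 1 or 3, HC3 M[0] replicate 2 or 3, HC3 M[IL-4] replicate 3 or RSM M[IL-4] replicate 3 (0.0513 to 0.183).

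In M[IL-4], *Tnf* was at 8.67, 10.6 and 7.95 CPM with Veh, 12.6, 10.4 and 12.0 with HC3, and 6.37, 3.39 and 4.63 with RSM. RSM was lowest in every library, and HC3 overlapped Veh. *Tnf* fell with RSM at FDR under 0.05 (log2 -0.92 ± 0.24, edgeR FDR = 0.00435) and passed the fold threshold as well without Veh M[IL-4] replicate 3 or RSM M[IL-4] replicate 1, the latter at -1.18. The FDR result was lost with replicate number 3 left out (edgeR FDR = 0.0558). The HC3 difference was 0.36 ± 0.22 (edgeR FDR = 0.216). The HC3 by IL-4 interaction of *Tnf* was 0.91 ± 0.31 (edgeR FDR = 0.0888, or 0.00352 with the replicate block within each polarization).

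*Osm*, on chromosome 11 (4236420 to 4241026, plus strand), encodes an IL-6 family cytokine that acts mainly on stromal and epithelial cells. In M[0] it was at 8.96, 10.9 and 9.63 CPM with Veh, 12.7, 16.3 and 14.1 with HC3, and 14.6, 16.9 and 16.2 with RSM. Both inhibitor groups were above Veh, overlapping each other. The rises passed on FDR alone, at log2 0.55 ± 0.16 with HC3 (edgeR FDR = 0.0102) and 0.70 ± 0.16 with RSM (edgeR FDR = 0.00194). The HC3 result was lost without HC3 M[0] replicate 2 (edgeR FDR = 0.0694) or with replicate number 3 left out (0.0756).

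In M[IL-4], *Osm* was at 7.59, 5.23 and 4.48 CPM with Veh, 11.3, 14.9 and 12.6 with HC3, and 22.7, 25.5 and 19.4 with RSM. The groups did not overlap, and RSM M[IL-4] was the highest of all 6. *Osm* rose 2.24-fold with HC3 (log2 1.16 ± 0.17, edgeR FDR = 2.41e-05) and 3.90-fold with RSM (log2 1.96 ± 0.17, edgeR FDR = 2.57e-08). The RSM by IL-4 interaction was 1.27 ± 0.23 (edgeR FDR = 0.00161), so the RSM effect on *Osm* was larger in M[IL-4] than in M[0], a call lost without the 6 libraries of replicate 3 (log2 1.24, edgeR FDR = 0.0687). The HC3 by IL-4 interaction was 0.61 ± 0.24 (edgeR FDR = 0.146, or 0.0234 with the replicate block within each polarization).

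*Il18* and *Tgfb1* moved least. *Il18*, whose product induces interferon-γ, lies on chromosome 9 (50554827 to 50581840, plus strand) and ranged from 2.85 to 7.05 CPM over all 18 libraries. It rose with RSM in M[IL-4], from 2.85, 3.31 and 4.54 CPM to 5.35, 5.11 and 6.07 (log2 0.63 ± 0.17, edgeR FDR = 0.00696), with no overlap. Its other inhibitor differences were -0.29 ± 0.17 and 0.07 ± 0.16 in M[0] and 0.17 ± 0.18 with HC3 in M[IL-4], none of which passed.

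*Tgfb1*, on chromosome 7 (25687002 to 25705077, plus strand), encodes a cytokine of tissue repair that is released in a latent form. It ranged from 361 to 552 CPM over all 18 libraries. In M[0] it fell at FDR under 0.05 by 0.25 ± 0.10 on the log2 scale with HC3 (edgeR FDR = 0.0485, groups overlapping) and by 0.37 ± 0.10 with RSM (edgeR FDR = 0.00508, no overlap). The HC3 result was lost in 11 of 28 alternatives, among them the compared groups alone (edgeR FDR = 0.0543), library size alone (0.127) and the omission of Veh M[0] replicate 2 or 3, HC3 M[0] replicate 1 or 2, or replicate 3 of any M[IL-4] group (0.0558 to 0.205). In M[IL-4] the differences were -0.12 ± 0.10 and -0.08 ± 0.10, with edgeR FDR of 0.358 and 0.574, the former 0.0269 with the replicate block within each polarization.

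*Il12b*, on chromosome 11 (44400063 to 44414033, plus strand), had 5, 2 and 0 counts in HC3 M[0], 0, 1 and 0 in HC3 M[IL-4], 0, 0 and 2 in RSM M[IL-4], and 0 in the 9 libraries of both Veh groups and RSM M[0]. Groups at 0 allow up to 3 counts over their libraries, counting error only. HC3 M[0] was above that with 7 counts in all, though its libraries ranged from 0 to 5. *Il12b* did not pass the filter, so no difference was tested.

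IL-4 itself, in macrophages given Veh, lowered 2 members past both thresholds, beside 6.66% of all genes called, and 5 passed on FDR, all lower, beside 31%. *Il1b* was 9.58-fold lower (log2 -3.26 ± 0.53, edgeR FDR = 7.14e-05), its M[IL-4] libraries all below those of M[0]. *Il1rn* was 2.11-fold lower (log2 -1.07 ± 0.20, edgeR FDR = 0.000396). It was short of the fold threshold without Veh M[0] replicate 1 (-0.89) or with replicate number 1 left out (-0.92). *Tnf* (log2 -0.98 ± 0.22, edgeR FDR = 0.00195), *Il18* (-0.76 ± 0.17, 0.00229) and *Osm* (-0.76 ± 0.18, 0.00246) fell on FDR alone, with no overlap between groups. *Tnf* passed the fold threshold too without Veh M[0] replicate 2 (-1.06), Veh M[0] replicate 3 (-1.03) or Veh M[IL-4] replicate 2 (-1.11), and *Osm* without Veh M[IL-4] replicate 1 (-1.03). Each of these FDR results was lost in 1 of 28 alternatives. *Tnf* and *Osm* no longer passed with replicate number 3 left out (edgeR FDR of 0.0665 and 0.0828), nor *Il18* with replicate number 2 left out (0.0549).

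After HC3, 2 members were called between M[IL-4] and M[0], beside 3.97% of all genes, and the same 2 passed on FDR, beside 14.7%. These were *Il6*, higher as given above, and *Il1rn*, 2.52-fold lower (log2 -1.33 ± 0.20, edgeR FDR = 0.000127). *Tnf* differed by -0.07 ± 0.22 (edgeR FDR = 0.886) and *Il1b* by -0.72 ± 0.89 (edgeR FDR = 0.656). *Il1b* was already at 5 or 6 counts per library in HC3 M[0], which leaves little room for a fall to be detected.

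After RSM, 2 were called, beside 4.26%, and 5 passed on FDR, beside 15.5%. *Il1a* was 4.89-fold lower in M[IL-4] (log2 -2.29 ± 0.58, edgeR FDR = 0.00638, no overlap), a call lost without the 6 libraries of replicate 3 (edgeR FDR = 0.0783). *Il1b* was 8.18-fold lower (log2 -3.03 ± 0.98, edgeR FDR = 0.0133), a call lost without RSM M[0] replicate 2 (log2 -2.62, edgeR FDR = 0.064), RSM M[IL-4] replicate 1 (-2.46, 0.0562) or RSM M[IL-4] replicate 2 (-2.81, 0.0543). The *Il1b* call was also lost with replicate number 1 or 2 left out. *Tnf* fell by 0.80 ± 0.24 on the log2 scale (edgeR FDR = 0.0264, and by 1.06 without RSM M[IL-4] replicate 1). *Osm* rose by 0.50 ± 0.15 (edgeR FDR = 0.033) and *Tgfb1* by 0.31 ± 0.10 (edgeR FDR = 0.0378). These 3 FDR results were lost in 5, 9 and 10 of 28 alternatives, respectively. *Tnf* no longer passed with the compared groups alone (edgeR FDR = 0.081) or without RSM M[0] replicate 1, RSM M[IL-4] replicate 2 or RSM M[IL-4] replicate 3 (0.0831 to 0.181). *Osm* was at 0.06 with library size alone and at 0.0545 to 0.159 without any of the 3 RSM M[0] libraries or RSM M[IL-4] replicate 1 or 2. *Tgfb1* was at 0.122 with library size alone and at 0.0543 to 0.18 without HC3 M[0] replicate 2, RSM M[0] replicate 1 or 2, or any of the 3 RSM M[IL-4] libraries. *Il1rn* differed by -0.51 ± 0.22 after RSM (edgeR FDR = 0.146, or 0.0114 with the replicate block over all libraries).

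**Figure D4:**
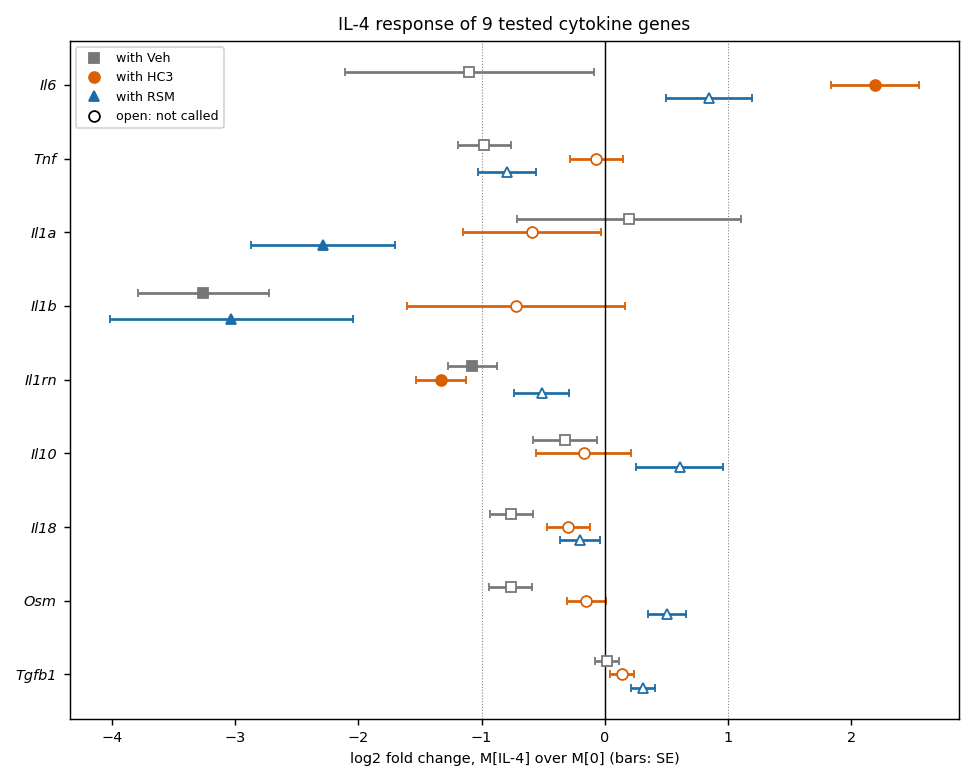
Log2 fold change of 9 cytokine genes in M[IL-4] over M[0] (horizontal axis) after Veh (grey squares), HC3 (orange circles) or RSM (blue triangles), with whiskers for the SE and filled symbols for called genes. *Il6* goes from -1.10 with Veh to 2.19 with HC3, and *Osm* from -0.76 with Veh to 0.50 with RSM.

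In the tests of whether IL-4 altered an inhibitor's effect, 0 of 9 members were called for HC3 by edgeR, beside 1.24% of all genes, and 0 passed on FDR, beside 6.48%. At an unadjusted p under 0.05 there were 4 (*Il6*, *Tnf*, *Il1b* and *Osm*), and DESeq2 called 1, *Il6*. For RSM, *Osm* was called and was the 1 member that passed on FDR without a block, beside 2.14% and 9.19% of all genes. At an unadjusted p under 0.05 there were 5 (*Il1a*, *Il10*, *Il18*, *Osm* and *Tgfb1*). With the replicate block within each polarization, *Il1rn* and *Tgfb1* passed on FDR as well (0.00334 and 0.00242), and over all libraries *Il1rn* did (0.042). Shares of all genes at an unadjusted p under 0.05, in DESeq2 or with a block are not given here. These further counts of members therefore cannot be set against a background.

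HC3 and RSM differ in chemistry, target and dose, and are set side by side only at the dose each was given. In M[0] their direct comparison called *Il1rn* alone (3.02-fold higher with HC3, log2 1.60 ± 0.21, edgeR FDR = 2.72e-05), beside 3.04% of all genes, and no other member passed on FDR, beside 13.6%. *Tnf* differed by 0.55 ± 0.22 (edgeR FDR = 0.113, or 0.00716 with the replicate block within each polarization). For *Il10* the difference was 0.09, with a 95% interval of -0.70 to 0.87, and for *Il6* -0.48, with an interval of -1.28 to 0.32. These intervals do not exclude differences within their bounds.

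In M[IL-4], *Tnf* alone was called (2.42-fold higher with HC3, log2 1.28 ± 0.23, edgeR FDR = 0.00087), beside 2.8% of all genes, a call lost without the 6 libraries of replicate 3 (edgeR FDR = 0.0717). On FDR 3 members passed, beside 13%, namely *Tnf*, *Il1rn* (log2 0.77 ± 0.22, edgeR FDR = 0.0248) and *Osm*, which was lower with HC3 (log2 -0.80 ± 0.16, edgeR FDR = 0.00178). The *Il1rn* result was lost in 7 of 28 alternatives, among them the omission of HC3 M[IL-4] replicate 1 or 3 or any of the 3 RSM M[IL-4] libraries (edgeR FDR of 0.0547 to 0.0947). *Il6* was higher with HC3 by 0.87 ± 0.32 (edgeR FDR = 0.0873, or 0.0134 with the replicate block within each polarization), and no library overlapped. *Il10* differed by -0.69, with an interval of -1.46 to 0.07, and was called lower with HC3 without HC3 M[IL-4] replicate 2 (log2 -1.25, edgeR FDR = 0.0427). *Il18* differed by -0.46 ± 0.17 (edgeR FDR = 0.0916, or 0.0447 with the replicate block).

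Among receptor and decoy genes of these cytokines, 17 tested of 19 listed, HC3 called 0 up and 4 down in M[0], and RSM 1 up and 5 down. In M[IL-4], HC3 called 1 up and 4 down, and RSM 2 up and 3 down. These were 23.5, 35.3, 29.4 and 29.4% of the tested list, beside 12, 11.6, 10.3 and 11% of all genes, among which 915 of 1804, 975 of 1732, 829 of 1536 and 899 of 1655 called genes were lower. The median log2 difference of the list was -0.49, -0.29, -0.17 and 0.22 in that order, beside the medians near 0 of all genes given above. *Il10ra*, the ligand-binding chain of the IL-10 receptor, fell from 196 ± 13.9 CPM in Veh M[0] to 56.6 ± 2.41 with HC3 (log2 -1.79 ± 0.09, edgeR FDR = 1.33e-11) and 77.9 ± 3.18 with RSM (log2 -1.33 ± 0.09, edgeR FDR = 7e-10). It therefore fell together with its ligand gene *Il10* in both. In M[IL-4], *Il10ra* fell with HC3 by 1.23 ± 0.09 on the log2 scale (edgeR FDR = 3.65e-09). Its mean there was 121 ± 10.1 CPM with Veh, 51.5 ± 7.09 with HC3 and 66.7 ± 4.81 with RSM.

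*Il6ra*, the IL-6 binding chain, fell from 124 ± 6.32 CPM in Veh M[0] to 44.9 ± 3.12 with HC3 (log2 -1.47 ± 0.09, edgeR FDR = 2.87e-10), opposite to *Il6*. With RSM in M[0] its mean was 61.5 ± 6.83 CPM. In M[IL-4], *Il6ra* was at 85.1 ± 4.36 CPM with Veh, 42.4 ± 3.37 with HC3 and 57.1 ± 6.87 with RSM. *Osmr*, which pairs with the common chain of the IL-6 family to bind oncostatin M, rose from 5.55 ± 0.999 CPM in Veh M[IL-4] to 16.7 ± 3.72 with RSM (log2 1.59 ± 0.25, edgeR FDR = 3.95e-05), as *Osm* did. *Lifr*, the receptor chain for leukemia inhibitory factor, fell in all 4 comparisons (log2 -1.90, -1.88, -1.53 and -1.53). *Il18rap* fell in M[IL-4] with HC3 (log2 -1.96 ± 0.25, edgeR FDR = 4.28e-06) and with RSM (-2.07 ± 0.25, 2.21e-06). IL-4 with Veh raised it (1.96 ± 0.25, 7.3e-06). In M[0], *Il18rap* was at 2.54 CPM with Veh, 1.24 with HC3 and 0.997 with RSM. *Il12rb2* fell with RSM in M[0] (log2 -1.90 ± 0.30, edgeR FDR = 4.84e-05). Stromal cells are known to express *Osmr*, and the part of the stromal markers, whose sums are given above, in the *Osmr* values was not tested.

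Genes for maturation and release of these cytokines, 16 of 16 tested, had 0 called up and 3 called down with HC3 in M[0], namely the inflammasome genes *Nlrc4* (log2 -1.42 ± 0.13), *Pycard* (-1.28 ± 0.09) and *Nlrp3* (-1.26 ± 0.07), with edgeR FDR of 3.94e-08, 1.96e-09 and 8.5e-11. RSM in M[0] called 0 up and 1 down. HC3 in M[IL-4] called 0 up and 2 down, *Itgb8* and *Pycard* (log2 -1.05 ± 0.09, edgeR FDR = 2.3e-08 for *Pycard*). RSM there called 0 up and 1 down, *Itgb8*. *Itgb8*, an integrin chain that frees latent TGF-β, fell with both (log2 -2.40 ± 0.30 and -1.90 ± 0.28). With RSM, *Pycard* was at 19.9 CPM in M[0] and 29.5 in M[IL-4], beside 32.7 and 47.2 with Veh. *Nlrc4* was at 15.6 and 9.91 CPM with RSM, beside 25.4 and 14.2. *Nlrp3* was at 64.6 and 32.0, beside 71.6 and 30.5. With HC3 in M[IL-4], *Nlrc4* was at 7.16 CPM and *Nlrp3* at 18.5. The shares called over the 4 comparisons, HC3 before RSM and M[0] before M[IL-4], were 18.8, 6.25, 12.5 and 6.25%, beside 12, 11.6, 10.3 and 11% of all genes. The medians of this list in that order were -0.26, -0.26, -0.28 and -0.12. IL-4 with Veh raised *Itgb8* by 3.70 ± 0.36 and lowered *Nlrp3* by 1.23 ± 0.07 on the log2 scale.

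Among 26 of 26 tested genes of cytokine transcription and mRNA decay, HC3 called 0 up and 3 down in M[0], RSM 3 up and 2 down in M[0], HC3 2 up and 2 down in M[IL-4], and RSM 3 up and 0 down in M[IL-4]. These were 11.5, 19.2, 15.4 and 11.5% of the list, beside 12, 11.6, 10.3 and 11% of all genes. The medians, in that order, were -0.44, -0.40, -0.11 and 0.10. *Zfp36l1*, whose protein binds AU-rich mRNA and hastens its decay, fell from 303 ± 24.2 CPM in Veh M[0] to 48.4 ± 3.86 with HC3 (log2 -2.64 ± 0.09, edgeR FDR = 7.56e-14) and 114 ± 4.14 with RSM (log2 -1.41 ± 0.08, edgeR FDR = 1.94e-10). Its relative *Zfp36* fell with HC3 in M[0] (log2 -1.12 ± 0.08, edgeR FDR = 2.19e-09). With RSM in M[0], *Zfp36* went from 271 ± 27.9 CPM with Veh to 131 ± 13.9. In M[IL-4], *Zfp36l1* was at 292 ± 27.3 CPM with Veh, 101 ± 8.49 with HC3 and 308 ± 23.0 with RSM. *Zfp36* was at 296 ± 10.3, 207 ± 9.97 and 288 ± 3.43 CPM in that order. *Maf*, a transcription factor known to drive *Il10*, fell with HC3 in M[0] (log2 -1.80 ± 0.08, edgeR FDR = 2.25e-12) and in M[IL-4] (log2 -1.16 ± 0.08, edgeR FDR = 1.63e-09). With RSM, under which *Il10* also fell, *Maf* passed on FDR alone and was lower in M[0] (log2 -0.52) but higher in M[IL-4] (log2 0.42). The part of *Maf* in the *Il10* values was not tested.

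Regulators that rose included *Cebpd*, a C/EBP factor of the acute phase response, with RSM in M[0] (log2 1.25 ± 0.22) and M[IL-4] (1.92 ± 0.24), at edgeR FDR of 0.000154 and 2.57e-06. *Socs3*, a feedback inhibitor of IL-6 family receptors, rose with RSM by 1.09 ± 0.24 and 2.04 ± 0.26 on the log2 scale (edgeR FDR of 0.00138 and 3.48e-06). *Nfkbiz*, whose protein IκBζ is a co-activator of *Il6*, was 6.51-fold lower in M[IL-4] than in M[0] with Veh (edgeR FDR = 4.65e-10). Within M[IL-4], *Nfkbiz* rose from 7.40 ± 1.56 CPM with Veh to 19.4 ± 2.10 with HC3 and 15.8 ± 2.35 with RSM (log2 1.39 ± 0.17 and 1.10 ± 0.17, edgeR FDR of 2.09e-06 and 3.49e-05). In M[0] the *Nfkbiz* differences were -0.17 ± 0.14 and -0.19 ± 0.14 and did not pass, and *Il6* rose there as well. The part of *Nfkbiz* in the *Il6* values was not tested.

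Of 25 other cytokine genes listed, 15 were tested, and HC3 called 4 up and 3 down in M[0], RSM 4 up and 3 down in M[0], HC3 3 up and 0 down in M[IL-4], and RSM 2 up and 2 down in M[IL-4]. These were 46.7, 46.7, 20 and 26.7% of the tested list, beside 12, 11.6, 10.3 and 11% of all genes. The medians were 0.54, 0.20, 0.19 and 0.18. *Csf1*, the macrophage growth factor gene, rose from 129 ± 36.7 to 404 ± 71.9 CPM with HC3 in M[0] (log2 1.65 ± 0.27, edgeR FDR = 8.57e-05). Its mean with RSM in M[0] was 317 ± 61.1 CPM. In M[IL-4], *Csf1* was at 127 ± 50.4 CPM with Veh, 336 ± 65.5 with HC3 and 272 ± 71.3 with RSM. *Tgfb3* and *Tgfb2*, relatives of *Tgfb1*, rose with HC3 in M[0] by 1.77 ± 0.28 and 1.61 ± 0.34 and in M[IL-4] by 1.66 ± 0.32 and 1.30 ± 0.38 on the log2 scale, while *Tgfb1* did not rise. Collagen genes of the stromal list moved the same way as *Csf1*, *Tgfb2* and *Tgfb3*, with *Col1a1* at a mean of 270 CPM in Veh M[0] and 611 in HC3 M[0], while *Dcn* and *Pdgfra* of that list were not higher with either inhibitor in M[0] (values given above). Of the 5 stromal markers, HC3 in M[0] called 2 up and 0 down and RSM 2 up and 1 down, and their part in these rises was not tested. *Tnfsf13b*, which encodes the B cell survival factor BAFF, fell under RSM, in M[0] as in M[IL-4] (log2 -1.65 ± 0.24 and -1.23 ± 0.23), and *Tnfsf9* rose (1.61 ± 0.20 and 1.24 ± 0.21).

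**Figure D5:**
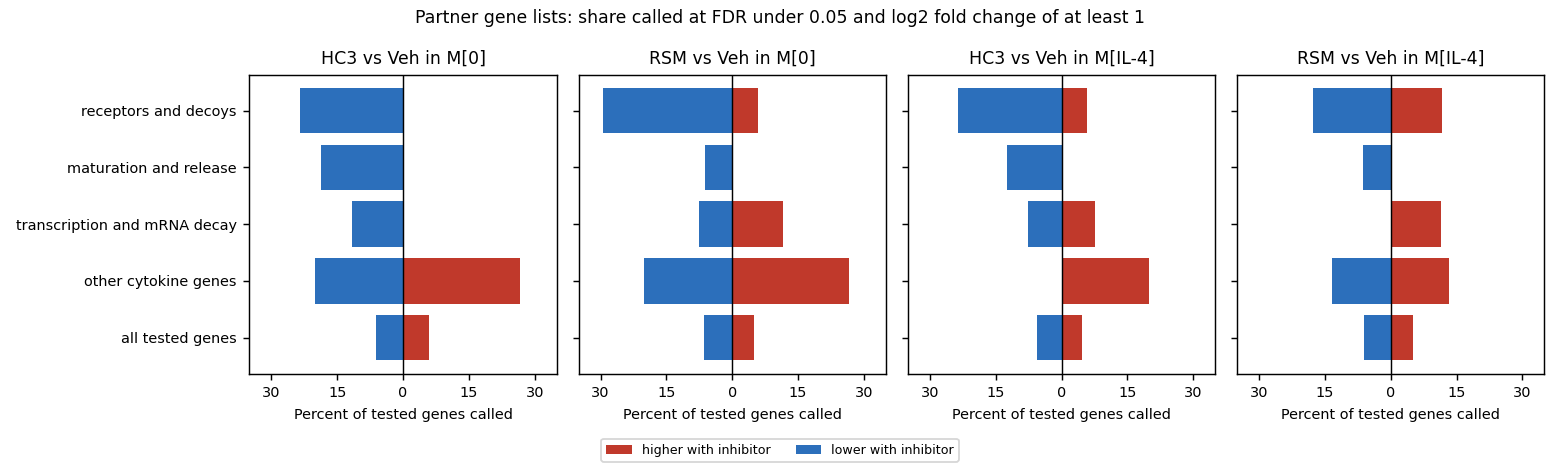
Share of tested genes called higher (red, to the right) or lower (blue, to the left) with an inhibitor (horizontal axis, percent) for 4 lists of partner genes and for all 14979 tested genes (vertical axis), in 4 panels for the 4 comparisons. The receptor and decoy bars reach farther to the left than to the right in every panel, as the bars of all genes also do by a smaller margin.

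Over the 18 libraries, the genes whose log2 CPM ran closest to each member were listed by Pearson's r among 10973 or 10974 genes averaging 50 or more counts, as a description, since the 18 points share groups and mice. For *Il6* these were *Polr3c*, *Ino80* and *Zc3hav1* (r = 0.94, 0.93 and 0.93). For *Il10* they were *Arpc4*, *Hprt* and *Sort1* (r = 0.96, 0.96 and 0.96), for *Il1b* *Pirb*, *Mpeg1* and *Kif3b* (r = 0.94, 0.93 and 0.93), and for *Osm* *Vamp1*, *Gng4* and *Grn* (r = 0.96, 0.96 and 0.94). *Tnf* and *Il1rn* shared *Adra1a* among their closest genes (r = 0.90 and 0.94), and the r of *Tnf* with *Il1rn* themselves was 0.84. *Il1a* ran closest to *Agpat4* (r = 0.87), *Il18* to *Atxn1l* (r = 0.95) and *Tgfb1* to *Fbxl6* (r = 0.89).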

How the data were processed

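Per the labels, 18 libraries of BMDM mRNA (poly-T selection) were mapped to 6 groups by treatment, with replicate numbers 1 to 3. The deposited table holds raw counts of pairs by gene, without normalization. The authors trimmed adapters with fastp, aligned to GRCm38 with STAR in local mode, retained those with mapping quality 40, marked but did not drop duplicates with Picard and counted exon reads with Subread featureCounts. Versions, annotation release and strand setting are not given in the sources used here. Depth was 17457796 to 19522255 counts per library. Floors cover counting error only.

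Genes reaching 10 counts in 2 or more libraries (14979 of 55385) were tested by edgeR 4.0.16 in R 4.3.3 (quasi-likelihood test, TMM, 2-sided). All 18 libraries entered together, each group had its own coefficient, no block was used, and p-values were adjusted by Benjamini-Hochberg over all tested genes. Intervals are the log2 fold change ± its SE times the t quantile for 95% coverage. The steps were tested on simulated data. Alternatives were a replicate block (over all libraries or within each polarization), DESeq2 1.42.0, the compared groups only, no count filter (29054 genes), filterByExpr (14466 genes), library size alone, and leaving out each replicate number or each library. Residuals of same-numbered libraries of 1 polarization correlated at 0.110 to 0.372, above 0.1 in 18 of 18 pairs, which meets the bar set for pairing. Across polarizations 12 of 27 did, 9 of 9 for number 2 (0.239 to 0.301) but 1 of 9 for number 1 and 2 of 9 for number 3, so the bar was not met there. M[0] number 3 with M[IL-4] number 1 exceeded 0.1 in 8 of 9 pairs (0.0861 to 0.198). The block within each polarization is therefore given for comparisons inside a polarization and for interactions. The block over all libraries is given for M[IL-4] against M[0] and for some interactions. It joins same-numbered libraries across polarizations, where the bar was not met, so values with it rest on an unmet pairing. Chi-square per gene between replicates was 6.30 to 20.3, where counting error alone gives about 1, so none was a copy of another.

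The members and lists were chosen with earlier results of these data known. Besides the members, genes named were taken from 2 sets. The first held, from each of 4 partner lists, up to 3 called genes with the largest change in each inhibitor comparison and in IL-4 with Veh. Those genes averaged 50 or more counts in their higher group. The second held the 3 closest genes by correlation (log2 CPM, prior count 2). Not every gene of these sets was named. Values of named genes in further comparisons, and genes of the marker lists, were chosen for mention after being seen. Near-identical transcripts (at least 98% identity over 100 bases) were found for *Il1a* alone, through its overlap with *Gm14023*.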

Additional observations from a re-analysis of the deposited data

Results flagged for a closer look

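The effect of RSM on *Osm* differed between M[IL-4] and M[0]: the RSM by IL-4 interaction was 1.27 on the log2 scale (edgeR FDR = 0.00161). RSM M[IL-4] stood above Veh M[IL-4] by 1.96 and RSM M[0] above Veh M[0] by 0.70, with all 3 libraries of each RSM group above those of its Veh group. The difference no longer passed without the 6 libraries of replicate 3 (log2 1.24, edgeR FDR = 0.0687).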

How the results depend on the processing

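Over 28 alternatives, counts of called members stayed within 1.5 times the reported count in 289 results and did not in 19. The 42 member results past FDR 0.05 kept direction and call (both thresholds together) in 402 values under the 10 alternatives other than single libraries, with 13 no longer called, 5 newly called and 0 reversed. Among these 420 values, 35 no longer passed on FDR, in 19 of the 42 results. Leaving out a single library gave 756 values, of which 41 no longer passed on FDR, in 10 results, and 0 reversed. The replicate block over all libraries, the replicate block within each polarization and DESeq2 each gave 1 call (*Il6*) in place of 0 for the HC3 by IL-4 interaction, and no count filter gave 2 (*Il6* and *Il1b*). No count filter also gave 2 calls in place of 1 for HC3 vs RSM in M[0]. The block changed no other count by over 1.5 times. Leaving out libraries gave 1 to 3 calls for M[IL-4] vs M[0] with Veh, 1 to 2 with RSM, 0 to 1 for the HC3 by IL-4 interaction, 0 to 1 for the RSM by IL-4 interaction and 0 to 2 for HC3 vs RSM in M[IL-4]. The HC3 by IL-4 interaction without replicate 2 called *Tnf* (log2 1.21, edgeR FDR = 0.0232). *Il6* and *Il10* stayed called in all 4 inhibitor comparisons under every alternative run, and so did *Il1b* in M[0]. *Osm* with HC3 in M[IL-4] was at 0.98 without replicate 2. The cause of each lost call was not tested. No library scaling moved the median of all genes by 0.1 or more. Counts under 10 per library limit how closely the size of some changes can be given. Such counts included those of *Il6* and *Il1a* with Veh, and of *Il1b* with HC3 and in RSM M[IL-4].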
